A study of Mus musculus with 2 samples.

Results

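The mitotic cells described here were the 10% of all captured cells with the highest level of 7 transcripts of late cell division: Nusap1, Ube2c, Cenpf, Aspm, Kif23, Prc1 and Cdc20. For each cell the 7 deposited natural-log values were averaged, the cells of both libraries were ranked together, and the top 10% were kept. This gave 1856 of 18560 cells, of which 881 came from the vehicle library (8708 cells) and 975 from the DFO library (9852 cells). The set is a range of a score and not a separate type: 590 of its cells lay within 0.1 (natural log) above the lowest score included, and 688 other cells lay within 0.1 below it. The lowest score inside was 2.1265 and the highest outside was 2.1264.

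During mitosis the duplicated chromosomes condense, attach to the spindle through their kinetochores and are pulled apart once the anaphase-promoting complex, activated by Cdc20, marks cyclin B and securin for destruction. Many of the transcripts needed for this are made late in the cell cycle, in G2, by the MuvB complex with B-MYB and FOXM1, and are kept low earlier by the DREAM complex of the same MuvB core with E2F4 and p130 or p107. Haematopoietic stem cells are mostly out of cycle in the marrow and enter it when cultured with cytokines. In cells of the megakaryocyte line, late mitosis is cut short as the cells become polyploid, and cytokinesis fails.

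The cells were haematopoietic stem cells sorted as Lin- Sca-1+ c-Kit+ CD150+ CD48- from the marrow of 8 wildtype C57/B6 mice aged 6 to 8 weeks, whose marrow was pooled. They were cultured for 48 h with stem cell factor at 100 ng/ml and thrombopoietin at 50 ng/ml, either with water as vehicle or with 10 µM of DFO, which is deferoxamine, an iron chelator. Of each culture 20000 cells were loaded in droplets for sequencing of the 3' ends of their transcripts. Each condition is 1 library, so no test between conditions is possible: differences below are between 2 libraries, and the intervals given are 95% intervals that cover counting error only (exact, except that of the ratio of shares, which rests on a normal approximation of its log). The mice were of both sexes by their transcripts, and their cells were mixed in both libraries.

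Mitotic cells were deeper than the rest, with a median of 36341 molecules per cell in the vehicle library and 35341 in the DFO library, against 26865 and 26214 in the other cells. The 10% of cells ranked just below them were deeper still, at 40169 and 37656. After every cell was thinned to 10000 molecules, mitotic cells held a median of 3125 and 3144 genes and the other cells 3045 and 3071.5; 3 and 4 mitotic cells and 347 and 429 others were too shallow and were left out. Droplets with transcripts of both sexes (at least 5 molecules of Xist and 2 of Y-linked genes), a sign of 2 cells in 1 droplet, made up 0.568% and 0.821% of mitotic cells, 2.63% and 3.68% of the others and 3.93% and 5.75% of the 10% just below. The mitochondrial share of molecules was 3.86% and 4.32% in mitotic cells and 3.88% and 4.40% in the others. Of all cell barcodes 24 occurred in both libraries.

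The 7 defining transcripts are given first as a description, since they chose the cells. Ube2c, the ubiquitin-conjugating enzyme that works with the anaphase-promoting complex, stood at 1288 molecules per 1000000 molecules (CPM) in the mitotic cells of the vehicle library and 1222 in those of the DFO library, against 324 and 312 in the other cells. Cdc20, the activator of that complex, stood at 459 and 480 against 173 and 184. The spindle-bundling factor Prc1 reached 387 and 401 CPM against 118 and 125, and Kif23, the motor that bundles the midzone with it, 122 and 125 against 34.9 and 41.8. Nusap1, a microtubule-bundling protein, was at 327 and 313 against 78.1 and 75.3. Cenpf, a kinetochore protein, was at 468 and 439 against 119 and 112, and Aspm, which acts at spindle poles, at 137 and 128 against 31.9 and 31.3. Across all cells of a library these 7 varied together, with a median Spearman rho between pairs of 0.60 in the vehicle library and 0.59 in the DFO library. Inside the set the medians were 0.05 over 881 cells and 0.07 over 975. The pair with the highest value there was Ube2c and Cdc20, at 0.38 and 0.37. These are correlations across cells of 1 library, which share depth and the selection on the sum of the same values, so they are given as a description.

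Outside the 7 genes, mitotic cells were marked by the transcripts of the spindle, the mitotic kinases and the kinetochore. Among 7510 genes with at least 10 CPM in mitotic or other cells of both libraries, 75 were at least 2-fold higher in mitotic cells in both libraries (0.999% of genes) and 8 at least 2-fold lower (0.107%). Since the cells were chosen on genes that move with these, the counts describe the cells and test nothing. The highest was Fam83d, a spindle protein that recruits casein kinase 1, at 26.7 CPM in vehicle and 26.2 in DFO mitotic cells against 5.57 and 6.18 in the other cells, a mean log2 difference (with 1 CPM added) of 2.00. Cdc25b, the phosphatase that starts CDK1 activation, followed at 51.8 and 46.0 CPM against 12.7 and 12.3 (1.88).

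Spindle motors and microtubule factors were the group with the highest median, with 18 of 24 genes at least 2-fold higher in both libraries and a median log2 difference of 1.19 against 0.03 over all genes compared. Depdc1a (53.9 and 56.5 CPM against 18.1 and 18.9), the hyaluronan-mediated motility receptor Hmmr, which binds spindle microtubules (256 and 244 against 90.2 and 84.3), and the kinesin Kif14 (38.9 and 35.5 against 13.0 and 12.3) were among its highest. Stmn1, the microtubule-destabilising protein stathmin, did not share this pattern, at 1792 and 1776 CPM in mitotic cells and 1724 and 1797 in the others. Of the mitotic kinases and cyclins 8 of 19 passed the 2-fold mark, with a median of 0.85. Among them were Plk1, the polo-like kinase of mitotic entry (189 and 188 CPM against 61.9 and 63.6), the spindle-pole kinase Aurka (156 and 160 against 54.7 and 55.9), Ccnb1, cyclin B1 (367 and 373 against 130 and 133), and its partner Cdk1 (471 and 469 against 223 and 228). Pkmyt1, a kinase that holds CDK1 inactive, was the only member on the low side, at 11.4 and 13.1 CPM against 15.6 and 16.4.

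All 24 kinetochore and checkpoint genes were above 0 and 6 were past 2-fold, with a median of 0.83. They were led by Sgo2a, a protector of centromeric cohesion (1.48), and Cenpe, the kinetochore motor (1.44). For condensation and cohesion the median was 0.67, with Top2a, the topoisomerase that disentangles chromatids (768 and 754 CPM against 372 and 369), and Mki67, which coats mitotic chromosomes (543 and 516 against 268 and 253), the 2 of its 20 genes past the 2-fold mark. Smc3, a cohesin subunit, and Ncapg2, a condensin II subunit, were on the low side at -0.21 and -0.30. The cytokinesis list spread widely: Ect2, the activator of RhoA at the cleavage furrow (60.8 and 58.8 CPM against 21.9 and 24.1), Cep55, an abscission factor (53.6 and 54.3 against 20.1 and 24.0), Ckap2, Racgap1 and Anln were past 2-fold, Shcbp1 and Cit lay between (0.67 and 0.84), Rhoa and Sept7 were near 0 (-0.01 and 0.05), and Chmp4b and Sept9 were on the low side (-0.18 and -0.24). Of the anaphase-promoting complex and its regulators only Fzr1 passed, at 102 and 95.7 CPM against 38.0 and 35.2. Fzr1 encodes Cdh1, which takes over from Cdc20 at mitotic exit; the core subunits Anapc11 and Cdc27 were at -0.04 and 0.44. Of the factors that drive these genes, Foxm1 was higher (22.0 and 21.5 CPM against 11.9 and 12.8, log2 0.78) and Mybl2, which encodes B-MYB, was lower (25.1 and 24.9 against 43.1 and 43.6, -0.77).

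Against the 10% of cells ranked just below, the same lists had smaller medians: 0.29 for spindle genes, 0.27 for kinases and cyclins, 0.20 for the kinetochore, 0.15 for cytokinesis and -0.19 for G1/S genes. The plot of genes by list shows how the lists differ and how closely the 2 libraries follow each other.

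**Figure D1:**
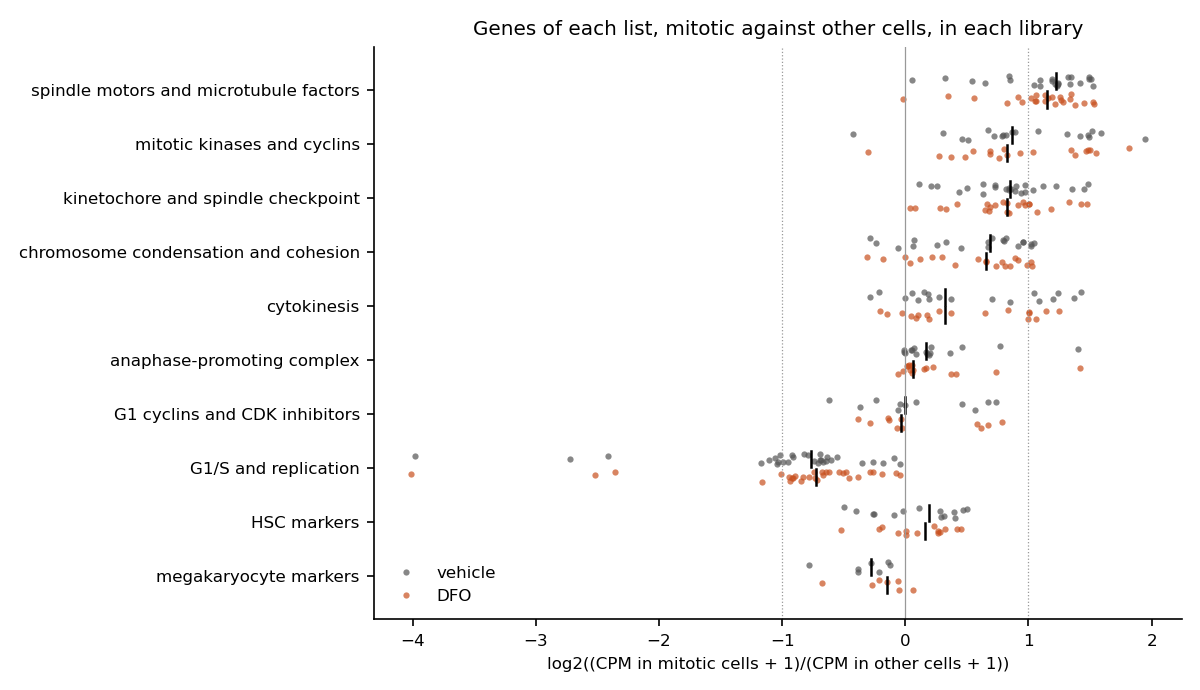
Log2 ratio of CPM (1 CPM added) in mitotic over other cells, 1 point per gene and library, with the list's median in each library as a vertical bar and dotted lines at the 2-fold mark. Spindle genes sit around 1.19, cytokinesis genes spread from -0.24 to 1.34, and all 30 genes of G1/S and replication lie below 0.

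The lower side was mostly made up of genes of the start of the cycle. All 30 genes of G1/S and replication were below 0, with a median of -0.75, and 5 were past 2-fold. Ung, the uracil-DNA glycosylase of replicating cells, was the lowest: 1.96 and 2.27 CPM in mitotic cells (64 and 79 molecules) against 45.8 and 51.7 in the others, a log2 difference of -4.00. The cyclins E, which drive entry into S phase, followed, with Ccne1 at 2.20 and 2.84 CPM against 20.1 and 21.0 (-2.62) and Ccne2 at 4.50 and 5.48 against 28.3 and 32.3 (-2.39). The helicase subunit gene Mcm6 and Pcna, the sliding clamp of the fork, were less reduced: Mcm6 stood at 126 and 143 CPM against 253 and 267, and Pcna at 46.5 and 52.3 against 95.0 and 99.9. Rrm1 and Pola1 were close to level (-0.04 and -0.08). The other genes past 2-fold on the low side were E2f1, an activator of G1/S genes (-1.27), Uhrf1 (-1.17), Cdc6 (-1.03), the immediate-early gene Egr1 (-1.18) and the histone gene Hist1h2bc (-1.93). Hist1h2bc belongs to a family of near-identical copies, between which reads may be divided.

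Of the cyclins and inhibitors of G1, none of 11 compared genes passed 2-fold, but Ccng2 (cyclin G2) and several inhibitors were on the high side. Ccng2 was at 17.5 and 15.5 CPM against 10.1 and 8.58, Cdkn2c (p18) at 27.0 and 28.2 against 16.6 and 17.3, Cdkn1b (p27) at 45.6 and 44.2 against 30.5 and 28.5, and Cdkn2d (p19) at 91.8 and 81.8 against 66.5 and 54.4. In contrast, Cdkn1a (p21) was at 33.0 and 39.7 CPM against 51.0 and 52.1. The D cyclins were level or slightly lower (Ccnd1 0.03, Ccnd2 -0.18, Ccnd3 -0.33).

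The promoters of the higher genes were then searched for known motifs, as a description. The motifs were not used to choose the cells. However, 6 of the 7 defining genes hold both, so the shares below are no outside support. Promoters bound by the DREAM and MuvB complexes often hold a cell cycle genes homology region (CHR), read here as TTTGAA or TTCGAA, and upstream CCAAT boxes, which NF-Y binds. Both were searched on both strands of RefSeq promoter windows (GRCm38.p6, 250 bases before to 50 after each start, 32851 windows). Of the 75 genes at least 2-fold higher, 60 had a window: 68.3% of these held a CHR, 80.0% a CCAAT box and 58.3% both. Over the 5997 compared genes with a window the shares were 16.9%, 43.2% and 7.19%, and over all windows 19.2%, 37.4% and 7.52%. The share with both motifs went down with the size of the difference: 28.1% of 121 genes at a mean log2 difference of 0.5 to under 1, 9.53% of 577 at 0.25 to under 0.5 and 5.89% of 4887 between -0.25 and 0.25. Genes at -0.5 or less held both in 7.69% of 78 cases. Of the lists, spindle genes held both in 60.0%, kinases and cyclins in 58.3%, G1/S genes in 13.0% and anaphase-promoting complex genes in 6.67%. Of the 7 defining genes 6 held both, and Nusap1 held neither. A match is a description of the letters and not a site.

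The 150 bases before the start of 5 of these genes are shown as examples in which both motifs lie upstream of a single annotated start; Cdc20 is another, and its bases are not printed. Ube2c is a defining gene, and Fam83d, Kpna2 (a nuclear import receptor), Depdc1a and Ccnf (the cyclin F subunit of a ubiquitin ligase) are among the 15 highest of the others. Each is written 5' to 3' on the gene's strand, with the CCAAT boxes (CCAAT or its complement ATTGG) and the CHR (TTTGAA or TTCGAA, or the complement TTCAAA) in capitals. Ube2c is at chr2:164769779-164769928 (+), Fam83d at chr2:158767949-158768098 (+), Kpna2 at chr11:106999526-106999675 (-), Depdc1a at chr3:159495283-159495432 (+) and Ccnf at chr17:24251410-24251559 (-).
Ube2c: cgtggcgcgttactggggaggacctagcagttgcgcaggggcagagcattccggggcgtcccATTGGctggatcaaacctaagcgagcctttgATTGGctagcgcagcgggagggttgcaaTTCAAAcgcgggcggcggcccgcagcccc
Fam83d: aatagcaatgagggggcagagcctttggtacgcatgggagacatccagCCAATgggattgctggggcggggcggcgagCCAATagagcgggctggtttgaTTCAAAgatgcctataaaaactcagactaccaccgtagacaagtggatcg
Depdc1a: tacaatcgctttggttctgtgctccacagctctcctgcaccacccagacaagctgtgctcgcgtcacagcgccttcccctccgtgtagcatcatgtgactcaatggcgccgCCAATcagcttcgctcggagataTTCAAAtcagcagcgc
Kpna2: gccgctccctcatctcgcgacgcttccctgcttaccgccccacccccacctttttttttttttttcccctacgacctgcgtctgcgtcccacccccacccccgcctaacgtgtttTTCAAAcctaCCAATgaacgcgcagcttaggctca
Ccnf: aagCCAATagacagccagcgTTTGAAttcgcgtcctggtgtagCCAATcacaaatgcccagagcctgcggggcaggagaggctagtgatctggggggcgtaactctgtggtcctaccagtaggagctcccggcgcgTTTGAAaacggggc
In Ube2c, Fam83d and Depdc1a a CCAAT box stands 23, 17 and 18 bases upstream of the CHR, and the CHR begins 29, 50 and 16 bases before the start. In Kpna2 the CCAAT box follows the CHR, and in Ccnf the CHR nearest the start lies 88 bases from the nearest CCAAT box upstream of it.

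**Figure D2:**
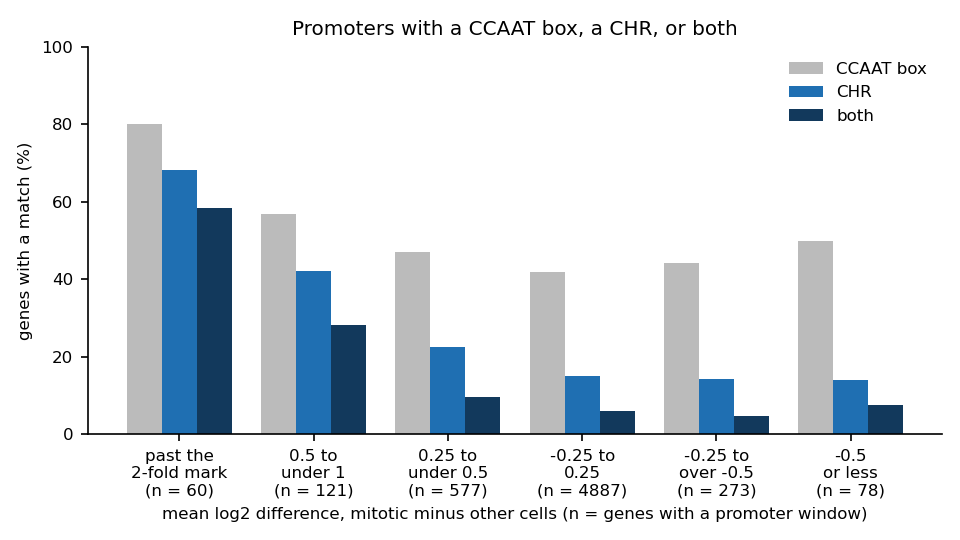
Percent of genes whose RefSeq promoter window holds a CCAAT box, a CHR or both, by the gene's mean log2 difference between mitotic and other cells. The share with both is 58.3% among the genes past the 2-fold mark and 5.89% among those between -0.25 and 0.25.

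Followed over 10 equal bins of the score, from the cells with the lowest score (bin 1) to the mitotic cells (bin 10), the lists reached their highest levels at different places. G1/S and replication transcripts summed to 3827 CPM (vehicle) and 4214 (DFO) in bin 1, were highest in bin 3 (4268 and 4533) and were lowest in the mitotic cells (2148 and 2382). Clustered histone genes were highest in bin 7 (989 and 946 CPM) and were down to 675 and 667 in the mitotic cells. Spindle genes were higher in each successive bin, with the widest step from bin 9 (4169 and 4225) to the mitotic cells (5054 and 4939). Foxm1 was at 19.1 and 18.9 CPM in bin 8 and 22.0 and 21.5 in the mitotic cells, whereas Mybl2 was highest in the middle (55.7 in bin 4 of the vehicle library, 53.5 in bin 5 of the DFO library) and lowest in the mitotic cells (25.1 and 24.9). These bins are cut from the score itself, and the median depth also moved along them, from 19502 and 19198 molecules in bin 1 to 40169 and 37656 in bin 9, whose part in the profile was not tested.

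**Figure D3:**
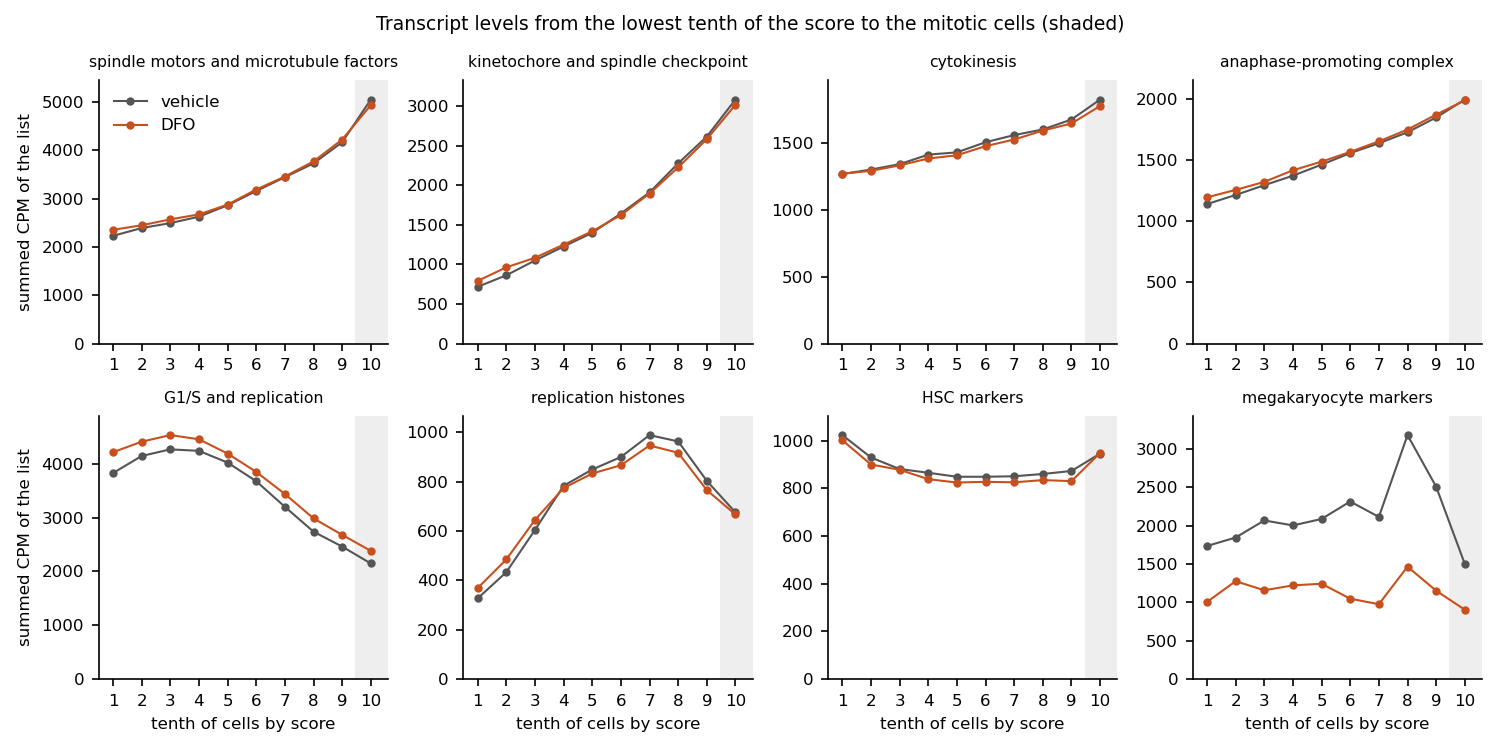
Summed CPM of 8 gene lists in 10 bins of cells ranked by the score, vehicle and DFO library separately, with the mitotic cells shaded. Spindle, kinetochore, cytokinesis and anaphase-promoting complex transcripts are highest in bin 10, replication transcripts in bin 3, histone transcripts in bin 7, and megakaryocyte transcripts drop between bin 9 and bin 10 in both libraries.

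Stem cell identity transcripts were present in mitotic cells, some higher and some lower than in the rest (Ctnnal1 -0.51). Ly6a, which encodes the sort antigen Sca-1, stood at 113 and 143 CPM against 79.7 and 107, the transcription factor gene Mecom at 39.6 and 43.6 against 28.3 and 31.7, and Procr, the endothelial protein C receptor, at 6.79 and 8.06 against 4.94 and 5.43. Of the 14 stem cell markers compared, 8 were above 0 (57% of all 7510 genes were) and none passed 2-fold, with a median of 0.18 that came to 0.02 with the top 20% of cells taken as mitotic. The cells of the lowest score bin held more of these markers than the mitotic cells, with a summed level of 1024 and 1002 CPM against 947 and 950, Ly6a at 142 and 182 and Procr at 7.87 and 8.29. As medians over single cells, the 21 stem cell markers summed to 893 and 888 CPM in mitotic cells and 831 and 805 in the others. The 10% of cells just below the set were at 835 and 804. Kit, the receptor for stem cell factor, was at 44.9 and 48.5 CPM against 33.9 and 39.7, and Slamf1 (CD150) at 13.6 and 11.9 against 14.5 and 11.8.

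Markers of the lineages were unevenly placed. Megakaryocyte markers were lower in mitotic cells, with 7 of 7 compared genes below 0 and a median of -0.21. The median was -0.03 with the score as a linear share of molecules and -0.05 with the top 20% of cells, where Pf4 was at -0.26 in place of -0.73. Pf4, platelet factor 4, was at 889 CPM in vehicle and 388 in DFO mitotic cells, against 1527 and 621 in the others. As medians over cells the 17 markers summed to 641 and 531 CPM in mitotic and 740 and 552 in other cells. Erythroid markers were slightly higher by the same measure (695 and 686 against 613 and 612), although Gata1 itself was at 20.3 and 14.4 CPM against 24.5 and 14.9. Neutrophil and monocyte markers were level (145 and 128 CPM against 145 and 131), and the granule genes Mpo and Elane were at 2.26 and 1.09 and at 0.031 and 0.229 CPM. Of the lymphoid markers Cd79a was at 0 and 0.029 CPM, and of the stromal ones Col1a1 at 0 and 0.029, each with at most 1 molecule in the set. Other members of both lists were present, mainly Nkg7 and Pecam1. Lymphoid markers had no molecule in 34.7% and 43.3% of mitotic cells and 34.6% and 43.6% of the others. For stromal or endothelial markers this was 16.9% and 21.2% against 28.6% and 32.2%. Mast cell markers had no molecule in 83.3% and 87.8% of mitotic cells and 85.9% and 89.7% of the others.

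Looked at from the lineage side, the mitotic share was lowest among cells with most megakaryocyte or neutrophil and monocyte transcripts and highest among those with most erythroid transcripts, in both libraries. Among the 10% of pooled cells highest in each marker list, the mitotic share for megakaryocyte markers was 6.99% (95% Clopper-Pearson interval 5.67 to 8.51, of 1316 cells) in vehicle and 6.11% (4.24 to 8.48, of 540) in DFO. It was 7.16% and 6.82% for neutrophil and monocyte markers, 9.44% and 8.66% for multipotent progenitor markers, 9.71% and 10.8% for stem cell markers and 12.9% and 12.4% for erythroid markers. The erythroid intervals were 10.9 to 15.2 and 10.3 to 14.8. The erythroid and the neutrophil and monocyte sums rested mostly on few genes, so a high sum need not mean a committed cell. In vehicle mitotic cells with fewest megakaryocyte transcripts (bin 1 of 4, described below), Hbb-bt and Car2 stood at 828 and 296 of 1147 erythroid CPM. Prtn3 stood there at 224 of 249 neutrophil and monocyte CPM. In bin 4 the values were 257 and 461 of 835, and 76.3 of 112. The megakaryocyte-high cells were deep (medians of 32929 and 32680.5 molecules) and the erythroid-high cells close to the library median (26842 and 25695), and the part of depth in these shares was not tested. A low share in the set is not a low score. Over the 10 score bins, summed megakaryocyte transcripts were highest in bin 8 (3178 and 1464 CPM). They stood at 2505 and 1151 CPM in bin 9, just below the set, and at 1733 and 1004 in bin 1. The megakaryocyte share therefore holds for the 10% cut, and how it depends on the place of that cut was not tested. These 5 cuts were made after the profile by score had been seen.

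The mitotic share did not differ between the libraries beyond counting error. Mitotic cells made up 10.1% of the vehicle library (881 of 8708, interval 9.49 to 10.8) and 9.90% of the DFO library (975 of 9852, interval 9.31 to 10.5), a ratio of 0.98 with an interval of 0.897 to 1.07. The share was 10.5% and 10.1% among female cells and 11.2% and 11.8% among male cells. Within the set, cells were also divided into 5 equal bins of the score, as a description, since the score chose them. Of vehicle mitotic cells 22.8% lay in the highest of 5 score bins (201 cells, interval 20.08 to 25.7), against 17.4% of DFO mitotic cells (170 cells, interval 15.1 to 19.97). From the lowest bin up, the other bins held 20.8%, 18.4%, 18.2% and 19.9% of vehicle and 19.4%, 21.4%, 21.6% and 20.1% of DFO mitotic cells.

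Transcripts of the mitotic machinery were at nearly the same level in the mitotic cells of both libraries. Cells of both libraries entered the set by the same score cut, on genes that move with these transcripts. Close levels inside the set may therefore follow from the selection, and whether DFO changes these transcripts was not tested. Inside the set 7607 genes had at least 10 CPM in 1 of the libraries, and with the mark set at a log2 difference of 0.25 (1.19-fold), 141 were higher with DFO (1.85% of genes) and 184 lower (2.42%). The median difference was 0.01 and its SD over genes 0.12. Of 121 entries in the 6 lists of mitotic function, 1 passed: Kifc1, a minus-end spindle motor, at 24.6 CPM in vehicle and 19.6 in DFO (log2 -0.31, against -0.21 in the other cells). List medians ran from -0.04 for spindle genes to 0.02 for kinases and cyclins. Ccnb1 differed by 0.02, Plk1 by -0.01, Cdk1 by -0.01, Aurka by 0.04, Top2a by -0.03 and Mki67 by -0.08. Cdc25b (51.8 and 46.0 CPM), Cdc25c (37.2 and 32.7) and the kinetochore gene Ndc80 (54.4 and 46.2) were lower with DFO, at -0.17, -0.18 and -0.23, under the mark. Others of these lists were higher by like amounts: Gtse1, Pkmyt1 and Sgo1 were at 0.22, 0.19 and 0.18. Of the 19 kinases and cyclins 10 were above 0 and 9 below. For the 24 kinetochore genes this was 11 and 13, and for the 24 spindle genes 7 and 17. Ckap2l, a spindle protein, was at 118 and 102 CPM in mitotic cells (-0.21) and at 80.9 and 53.9 in the others (-0.58).

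Replication transcripts, which mitotic cells hold at their lowest, were mostly a little higher with DFO. Of 27 G1/S genes 25 were above 0 with DFO, as were 54.6% of all 7607 genes. Past the mark as higher were 4 of the 27, and 1.85% of all 7607 genes. The 4 were the licensing factor Cdt1 (33.0 and 42.0 CPM, log2 0.34), the GINS subunit Gins1 (12.2 and 15.4, 0.31), the fork protection factor Tipin (185 and 223, 0.27) and the helicase subunit Mcm2 (77.2 and 93.1, 0.27). With the top 20% of cells Cdt1, Gins1 and Mcm2 were at 0.248, 0.18 and 0.22, under the mark. The median over the list was 0.17 in mitotic cells and 0.09 in the other cells, with 0.01 and 0.02 over all 7607 genes. Mcm6 stood at 126 CPM (122 to 130) in vehicle and 143 (139 to 147) in DFO. In each of the 5 score bins inside the set the summed list was higher with DFO, from 2232 against 2535 CPM in the lowest bin to 1887 against 2013 in the highest. The DFO library also had fewer mitotic cells in the highest score bin, where these transcripts are lowest. The part of this in the difference was not tested. Orc1, an origin recognition subunit outside the list, was at 8.75 and 12.3 CPM (0.45, against 0.13 in the other cells), and Rpa3, a subunit of the single-strand binding protein RPA, at 44.3 and 61.9 (0.48, against 0.47).

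Of the 11 G1 regulators compared 2 passed the mark, 1 higher and 1 lower. Of all 7607 genes 1.85% passed as higher and 2.42% as lower. Cdkn1a was higher with DFO in mitotic cells (33.0 CPM, interval 31.0 to 35.0, against 39.7, interval 37.7 to 41.9; log2 0.26) and differed by 0.03 in the other cells. In female cells alone its difference was 0.16, under the mark, and in male cells alone 0.46. Cdk6, a kinase of G1, was lower (293 and 246 CPM, -0.25, with -0.19 in the others), and in male cells alone was at -0.18. Over the 7 p53 target genes compared the median was 0.06, and Mdm2, which p53 also drives, was level at 28.7 and 28.7 CPM.

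Megakaryocyte transcripts were lower with DFO, with the largest median of the lists. Of 8 compared markers 5 were lower with DFO past the mark (2.42% of all 7607 genes were) and none was above 0 (54.6% were). The median was -0.50 in mitotic cells and -0.68 in the others. Pf4 was at 889 CPM (879 to 899) in vehicle and 388 (382 to 395) in DFO, a log2 difference of -1.19. Treml1, a receptor of platelet granules, was at 14.5 and 5.65 CPM (-1.22), and the platelet glycoprotein genes Gp9 (31.8 and 17.3, -0.84), Gp5 (-0.54) and Itga2b (93.4 and 67.4, -0.47) were lower as well. F2r and Cd9 were nearly level (-0.03 and -0.09). With these went Gata1 (-0.47), Nkg7 of the lymphoid list (84.2 and 61.8, -0.44) and Ms4a3 of the neutrophil and monocyte list (20.9 and 14.7, -0.48). In these sums fewer cells with a megakaryocyte programme and less transcript per cell cannot be told apart. Nkg7 and Ms4a3 were themselves higher in the mitotic cells with most megakaryocyte transcripts (bin 4 against bin 1 below, mean log2 differences of 1.96 and 1.88). Prtn3, of the same list as Ms4a3, was lower there (-1.58). The list that a gene is on need not name its lineage in these cells.

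Of the iron genes Tfrc was higher with DFO in the mitotic cells. Tfrc, the transferrin receptor, whose transcript is stabilised by iron regulatory proteins when iron is short, stood at 41.7 CPM in vehicle and 54.9 in DFO mitotic cells, a log2 difference of 0.39, against 60.1 and 69.5 (0.21) in the other cells. It was lower in mitotic than in other cells in both libraries, at a mean log2 difference of -0.42, and higher with DFO in each of the 5 score bins inside the set (33.0 and 40.2 CPM in the highest). It was the only gene of 13 in iron handling to pass the mark, which 1.85% of all 7607 genes passed as higher. With the top 20% of cells taken as mitotic the difference of Tfrc was 0.237, just under the mark. The ferritin genes, which the same proteins control through translation, were level (Fth1 3122 and 3079 CPM, and Ftl1, which may share reads with near-identical copies, 2224 and 2305), as were Ireb2 (23.9 and 24.2) and the ferritin-degradation receptor Ncoa4 (63.0 and 63.2).

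Lists of growth and energy genes had small medians with DFO, some above and some below 0. Of all 7607 genes compared, 54.6% were above 0, 1.85% passed the mark as higher and 2.42% as lower. Of 28 genes of ribosome production and growth driven by MYC, 24 were above 0 with DFO (median 0.15, and 0.13 in the others), with Pno1 (0.33) and Noc4l (0.28) past the mark; 26 of the same 28 were lower in mitotic than in other cells (median -0.20). Transcripts of the mitochondrial genome were above 0 in 12 of 13 cases (median 0.15), led by mt-Nd3, a subunit of complex I, at 744 and 1065 CPM (0.52). Cholesterol synthesis was below 0 in 15 of 18 cases with DFO (median -0.13), and Mvk, mevalonate kinase, passed at 21.5 and 17.9 CPM. Glycolysis genes were below 0 in 13 of 17 cases (median -0.11) and none passed. In male cells alone the cholesterol and glycolysis medians were -0.06 and -0.01. Targets of the hypoxia-inducible factors, which chelation of iron can stabilise by stalling the prolyl hydroxylases, were not higher: 12 of 13 were below 0 (median -0.09), and Ndrg1 (32.8 and 24.7 CPM, -0.39) and Bnip3l (166 and 138, -0.27) passed on the low side.

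The genes at the 2 ends of the comparison were mostly not cell cycle genes. After Treml1, Pf4 and Gp9 the lowest were Col18a1 (25.7 and 14.1 CPM, -0.82), Pdcd4, an inhibitor of translation and a known tumour suppressor (150 and 84.8, -0.81), Pde5a (-0.71), Alox5, the 5-lipoxygenase of leukotriene synthesis (-0.68), Cd180 (-0.66), Asap2 (-0.65) and Rapsn (-0.64). The highest, besides mt-Nd3, Rpa3 and Orc1, were Usp50 (19.4 and 28.6 CPM, 0.53), Plscr2 (0.48), Gm10076 (0.47), the histone gene Hist1h2ap (0.47), Gpn2 (0.45), Akr1c13 (0.43) and the small nucleolar RNA host gene Snhg6 (0.42). Gm10076 and Hist1h2ap may share reads with near-identical copies. Akr1c13 was at 0.17 in female cells alone, under the mark, and at 0.53 in male cells alone. Pdcd4 was at 148 and 87.0 CPM in the other cells (-0.76), so its difference was of like size in and outside the set.

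The differences in mitotic cells had the sign seen in the rest of the library. Of the 141 genes higher with DFO, 138 were above 0 in the other cells and 57 also passed the mark there. Of the 184 lower genes, 183 were below 0 and 101 passed. Over all 7607 genes, 58.7% were above 0 in the other cells, and there 97 passed the mark as higher and 168 as lower. None passed in opposite directions in the 2 sets, and no test of a difference between the sets is possible. Both sets of a condition come from 1 culture and 1 library, so they are not independent of each other.

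**Figure D4:**
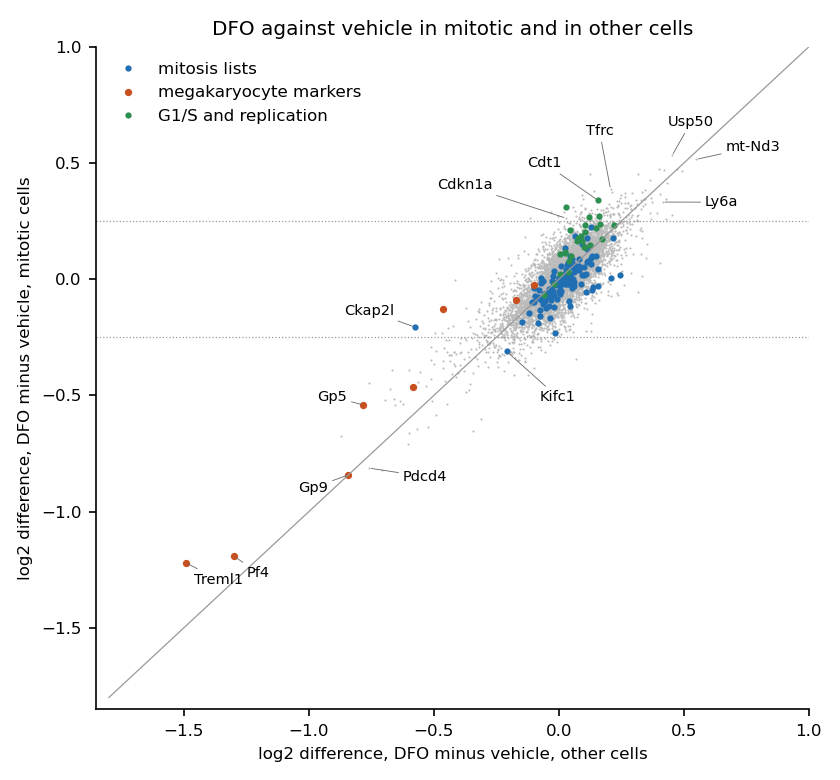
Log2 difference between DFO and vehicle (1 CPM added) in the other cells (x) and in the mitotic cells (y), 1 point per gene for 7607 genes, with the diagonal drawn and dotted lines at 0.25 either way. Genes of the 6 mitosis lists lie around 0 apart from Kifc1 and Ckap2l, G1/S genes lie mostly above 0, and Pf4 and Treml1 are the lowest points.

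Mitotic cells were ranked by their share of megakaryocyte transcripts and divided into 4 equal bins, to see how division genes vary with this lineage's programme. These bins, too, were cut after the profile by score had been seen, and Pf4 is one of the genes ranked on. Bin 4, with most such transcripts, held 31.0% of vehicle mitotic cells (273, interval 27.9 to 34.2) and 19.6% of DFO mitotic cells (191, interval 17.1 to 22.2), and bin 1 held 22.5% and 27.3%. From bin 1 to bin 4 Pf4 went from 52.5 to 2650 CPM in vehicle and from 42.6 to 1613 in DFO, and Gata1 from 1.30 to 56.0 and from 0.509 to 52.4. The stem cell markers went the other way, with Procr from 13.3 to 0.614 and from 12.8 to 0.606 CPM, and Ly6a from 209 to 18.2 and from 184 to 27.4. Slamf1, which is also on the stem cell list, was higher in bin 4 (a mean log2 difference of 2.34). In each bin Pf4 was lower in the DFO library.

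The mitosis genes moved in both directions between these bins. Ccnb1 stood at 341 and 353 CPM in bin 1 and 392 and 392 in bin 4, Plk1 at 179 and 178 against 197 and 200, and the median over the 19 kinases and cyclins was 0.13, against -0.01 over all 7667 genes compared. Within that list Bora, an activator of Aurora A (0.56), Nek2 (0.47) and Ccnb2 (0.43) were the highest in bin 4, and the CDK1 inhibitor Wee1 (-0.29) and Mastl (-0.24) the lowest. The abscission factor Cep55 was lower in bin 4, at 37.5 and 39.5 CPM against 64.0 and 58.2 in bin 1 (mean log2 difference -0.65), and so was Ect2, at 45.3 and 44.7 against 66.5 and 65.0 (-0.54). Kif23, the motor of the centralspindlin complex that recruits Ect2 and one of the 7 defining genes, was at 102 and 107 against 131 and 135 (-0.34). Kif13b (-0.26) and Rock2 (-0.24), also of the cytokinesis list, were lower in both libraries as well. Other members were closer to level or higher: Racgap1, the partner of Kif23 in centralspindlin, was at 122 and 121 against 108 and 112, Anln, which ties actin to the septins, at 51.7 and 53.5 against 52.0 and 58.6, the ESCRT gene Chmp4b was the highest of the list (0.40), and the list as a whole had a median of 0.13.

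Other cell cycle genes also separated the bins in both libraries. Ckap2l went from 85.1 to 185 CPM in vehicle and from 88.6 to 159 in DFO, E2f8, a repressor of E2F targets tied to polyploidy, from 23.2 to 67.5 and from 25.6 to 58.3, Cdk6 from 208 to 410 and from 206 to 356, and Cdkn2d from 62.3 to 133 and from 62.0 to 120. Mybl2 (-0.51) and Cdc6 (16.8 to 6.45 and 17.4 to 8.49 CPM) were lower. Replication histones were higher in 10 of 11 cases (median 0.48) while G1/S genes had a median of -0.25. The multipotent progenitor gene Flt3 was at 17.4 and 15.8 CPM in bin 1 and 2.46 and 1.36 in bin 4. The median depth went from 39106 and 36946 molecules in bin 1 to 33872 and 33580 in bin 4, and droplets with transcripts of both sexes were 0.505% and 0.376% in bin 1 and 0.733% and 2.09% in bin 4; the part of either in these differences was not tested.

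**Figure D5:**
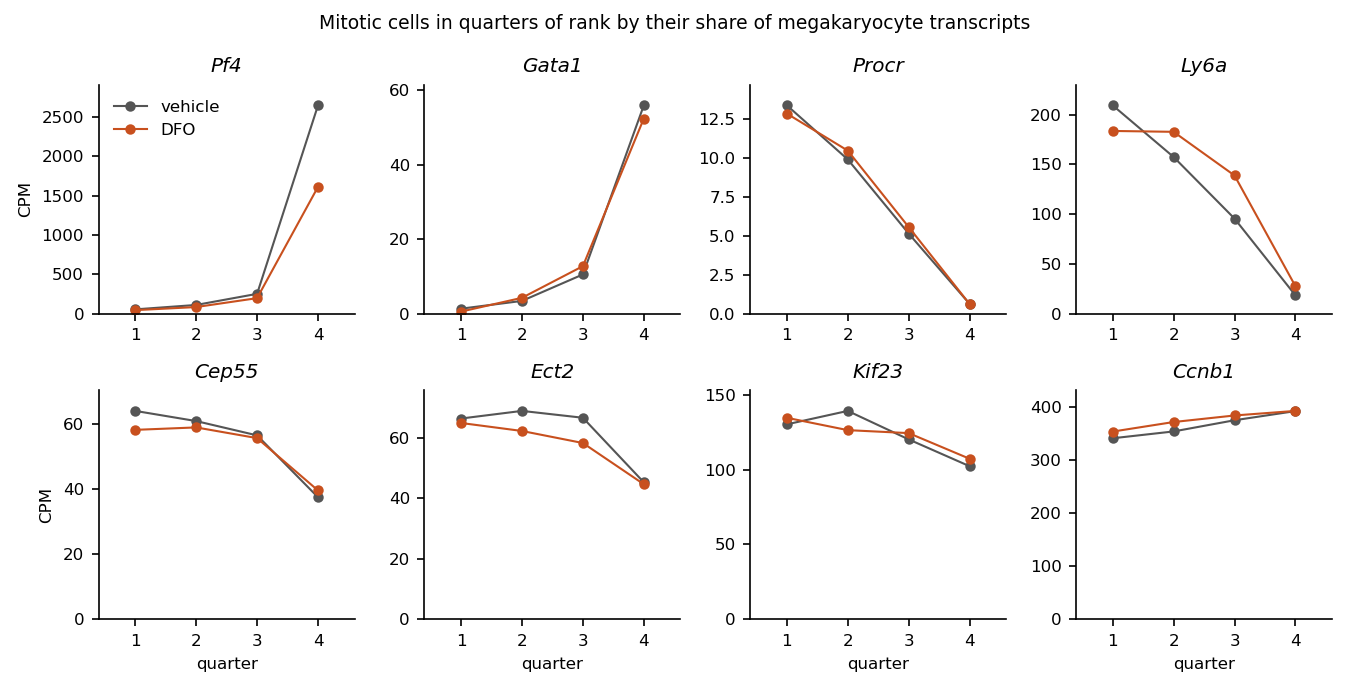
CPM of 8 genes in mitotic cells divided into 4 bins by their share of megakaryocyte transcripts, from bin 1 (least) to bin 4 (most), vehicle and DFO library separately. Pf4 and Gata1 are highest in bin 4, Procr and Ly6a decline toward it, Cep55, Ect2 and Kif23 are lowest in bin 4, and Ccnb1 is not.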

How the data were processed

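Single-cell RNA sequencing was made of 2 cultures, 1 library each, and sequenced in 2 lanes per library. Per the submitters' processing notes, FastQC 0.11.9, Trim Galore 0.6.5, Cell Ranger 3.0.2 and the mm10 genome build were used; no source used here gives filters on cells or genes. The authors deposited, for each library, a matrix of natural log values per gene and cell. Every nonzero value, turned back to the linear scale, was a whole number of molecules within 0.05, so molecules were recovered (260958089 in the vehicle and 284345453 in the DFO library). Values over cells are molecules summed over the cells of a set and divided by their total (CPM).

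The score was the mean deposited natural log value of the 7 genes, and the top 10% of pooled cells were the mitotic set. Differences are log2 ratios of CPM with 1 CPM added, for genes with at least 10 CPM. A gene was counted at a log2 difference of 1 in both libraries between sets, and of 0.25 between libraries. With 1 library per condition there is no replicate: molecule intervals are exact Poisson and shares exact Clopper-Pearson, at 95%, and cover counting error only. Doublets were kept in the main analysis and left out in an alternative. The log2 difference between libraries and the Poisson intervals were tested on simulated Poisson counts for the chosen cells. In these counts the cells of a library differed only by depth and counting error. The other steps were not tested in this way.

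Named were the 7 defining genes, the 15 highest others and the 10 lowest genes of at least 50 CPM between sets, the 10 highest and 10 lowest between libraries, the extreme members of each list and the members of the mitosis lists and of the G1 regulators; other list members, and genes past a mark in small counts, were named after their values were seen. The members and lists were chosen with earlier results of these data known. Python 3.11.15, numpy 2.4.6, scipy 1.17.1, pandas 2.3.3 and matplotlib 3.10.9 were used.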

Additional observations from a re-analysis of the deposited data

How the results depend on the processing

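The ratio of mitotic shares stayed inside its counting interval in all 15 alternatives, from 0.909 (score without Cdc20) to 1.03 (male cells alone). Counts past a mark moved more. Of genes higher with DFO (141), the count was 325 with the top 5% of cells, 244 in female and 418 in male cells, 42 with 10 CPM added, and 227, 40 and 566 with a minimum of 5 CPM, 50 CPM or none. Of genes lower with DFO (184), it was 279 with the top 5%, 385 in male cells, 71 with 10 CPM added, and 308, 47 and 715 with those minimums. Between mitotic and other cells, the 75 higher genes became 36 with 10 CPM added and 44 with a minimum of 50 CPM, and the 8 lower genes became 4 with 10 CPM added and 14, 1 and 15 with a minimum of 5 CPM, 50 CPM or none. Smaller sets and lower minimums bring fewer molecules per gene and therefore wider counting error. Multipotent progenitor markers, at a median of 0.12 between mitotic and other cells, turned to -0.0113 with the top 20% of cells and to -0.0141 with the mean over cells; the cause was not tested. With DFO the G1/S median ran from 0.11 to 0.22, the megakaryocyte median from -0.73 to -0.41 and Tfrc from 0.24 to 0.46. The stem cell marker median between sets ran from 0.02 (top 20%) to 0.28. No paired analysis was possible because each condition is 1 library, and for the same reason no library could be left out.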

Other observations

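Several genes outside the lists were also high in mitotic cells. The histone variant gene H2afx stood at 865 and 842 CPM in vehicle and DFO mitotic cells against 341 and 346 in the others. Of the 15 highest genes not described above, Prr11, Hyls1, Neurl1b, Pif1, Pimreg and Psrc1 had mean log2 differences of 1.71, 1.63, 1.62, 1.59, 1.57 and 1.50. Pif1 encodes a DNA helicase and Neurl1b a ubiquitin ligase of the Notch pathway. H2afx was named after its values were seen.

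The 10 lowest genes of at least 50 CPM in the other cells were nearly all of replication and chromatin assembly. They included the origin recognition gene Orc6 (-1.04), the helicase subunit gene Mcm4 (-1.02), the chromatin assembly factor gene Chaf1b (-0.99), the histone mRNA binding factor gene Slbp (-0.90), the GINS gene Gins2 (-0.87) and Zmynd19 (-0.86).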
